A study of Mus musculus with 38 samples.

Results

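The genes described here are the chemokine genes Ccl1, Xcl1, Ccl3, Ccl4 and Ccl20 and the receptor gene Ccr8. They were chosen by gene symbol and are 6 of 31053 symbols in the count tables. The choice was made with results of these data already known, across all of the comparisons below. The fold changes and adjusted p values given for them therefore describe where each gene stands in a fit over all genes and are not independent tests.

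Messenger RNA was counted in 38 libraries of 2000 sorted mouse T cells each, all on the C57/B6 background. In vivo libraries came from T cells carrying the 2D2 receptor, a transgenic T cell receptor for a myelin protein. The cells were differentiated to the state the labels call Th17Inf, transferred into WT recipients to cause experimental autoimmune encephalomyelitis (EAE), and sorted again at peak disease. From the central nervous system (CNS) there were CHD1 WT (n = 3) and CHD1 cKO (n = 4) cells and, in another table, GR WT (n = 4) and GR cKO (n = 4) cells. From the draining lymph node (dLN) there were CHD1 WT (n = 3) and CHD1 cKO (n = 4) cells. CHD1 is a chromatin remodeller, GR is the glucocorticoid receptor, and cKO stands for conditional knockout (the genotype labels say only KO). The labels do not name the Cre line, the age of the mice, or whether libraries were separate animals. In vitro, WT and IL-23R KO cells from spleen and dLN were made into Th17Inf cells and cultured for 2 days, some of them with dexamethasone (Dex), a synthetic glucocorticoid, with n = 4 in each of 4 groups. The dose of Dex was not given.

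Chemokines are small secreted proteins that bind receptors coupled to G proteins and steer the migration of leukocytes. CCL1 is made mainly by activated T cells and binds CCR8, a receptor of Th2 cells and of regulatory T cells in tissues. XCL1 (lymphotactin), made by activated CD8 T cells, NK cells and some CD4 T cells, attracts dendritic cells that carry XCR1. CCL3 and CCL4 are released by activated T cells and macrophages, and CCL3 binds CCR1. CCL20 is the ligand of CCR6, the receptor often used to mark Th17 cells. In EAE, chemokines made in the CNS take part in the entry of leukocytes.

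Total counts per library ranged from 4911109 to 6262849 (CHD1, CNS), 3148634 to 5158450 (CHD1, dLN), 6281769 to 9159671 (GR) and 3320586 to 4732419 (in vitro). The T cell label was borne out by Cd3e, which stood between 154 and 858 CPM (a count scaled to the library total) in all 38 libraries. The Th17 label was not equally borne out in every group, since Il17a was listed at 0 in all 7 dLN libraries. The CNS libraries also held RNA of macrophages or microglia. Their 14 markers summed to 2708 to 12261 CPM there, against 42.6 to 117 CPM in the dLN and 50.1 to 101 CPM in vitro. In vitro, Lyz2, Itgam, C1qb, C1qc and Trem2 of that list were at 0 in every library. The CHD1 cKO dLN libraries also held CD8 transcripts, with Cd8a at 20.4 to 148 CPM against 0.318 to 1.74 CPM in CHD1 WT dLN. Nr3c1, the gene of GR, was 11.1 to 18.0 CPM in GR WT and 5.25 to 5.68 CPM in GR cKO libraries. Chd1 overlapped between CHD1 WT and cKO in both tissues, so those labels have no such check. Il23r was still counted in all 8 libraries labelled IL-23R KO, but at a lower level than in every WT library of the same treatment. It was 2.25 to 6.22 CPM in KO against 6.33 to 8.66 CPM in WT controls (adjusted p = 0.397), and 1.12 to 2.11 against 5.57 to 16.6 CPM with Dex, by edgeR's test (log2 -2.41, adjusted p = 1.87e-05).

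Ccl1 (ENSMUSG00000020702.13) lies on mm10 chromosome 11, where its principal transcript of 3 exons runs from 82176657 to 82179812 on the minus strand, with Ccl8 as the nearest chemokine gene. Ccl3 (83647844 to 83649355, minus strand) and Ccl4 (83662584 to 83664683, plus strand) lie farther along the same chromosome, 13229 bases apart. Xcl1 (164931644 to 164935527, minus strand) and Ccl20 (83116766 to 83119167, plus strand) lie on chromosome 1. Xcl1 is overlapped by the antisense gene Gm20743, and no source states that strand was used in counting, so reads of the pair cannot be told apart. Ccr8 (120092114 to 120094906, plus strand, 2 exons) lies on chromosome 9 with Cx3cr1 as the nearest chemokine receptor gene.

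The 250 bases before the start site were read from RefSeq promoters (GRCm38.p6, the assembly of mm10) for Ccl1, Ccr8, Xcl1, Ccl3 and Ccl20. The promoters of 3 ligand genes are shown because these genes were all higher in the CNS than in the dLN, yet their letters differ. The source held no promoter for Ccl4, which was also higher in the CNS. Capitals mark GGAAA or its reverse complement TTTCC, the core recognised by NFAT, a factor switched on by T cell receptor signalling.
Ccl1, chr11:82179813-82180062 (minus strand): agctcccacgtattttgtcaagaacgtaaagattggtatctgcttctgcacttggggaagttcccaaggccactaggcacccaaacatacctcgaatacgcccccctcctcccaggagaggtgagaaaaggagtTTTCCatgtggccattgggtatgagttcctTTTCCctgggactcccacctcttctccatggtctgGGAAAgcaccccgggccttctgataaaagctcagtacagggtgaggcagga
Xcl1, chr1:164935523-164935772 (minus strand): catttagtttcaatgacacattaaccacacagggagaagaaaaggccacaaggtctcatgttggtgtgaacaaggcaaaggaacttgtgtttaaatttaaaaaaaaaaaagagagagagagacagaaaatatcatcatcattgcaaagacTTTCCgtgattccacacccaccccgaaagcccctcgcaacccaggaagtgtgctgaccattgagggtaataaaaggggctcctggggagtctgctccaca
Ccl3, chr11:83649379-83649628 (minus strand): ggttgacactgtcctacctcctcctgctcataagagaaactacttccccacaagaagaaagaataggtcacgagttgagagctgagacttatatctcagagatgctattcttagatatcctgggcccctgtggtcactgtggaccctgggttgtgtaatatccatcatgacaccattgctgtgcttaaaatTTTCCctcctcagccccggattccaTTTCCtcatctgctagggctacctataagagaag
The core occurs 3 times before Ccl1, 2 times before Ccl3 and 1 time before Xcl1. It occurs 3 times before Ccl20 and not at all before Ccr8. Of 32851 promoters cut to the same length, 55.6% hold at least 1 match, 21.4% at least 2 and 6.39% at least 3. The AP-1 motif TGACTCA and the cyclic AMP motif TGACGTCA were in none of the 5 promoters and in 4.46% and 1.55% of all promoters. The palindromic glucocorticoid response element was in none of the 5 and in 3 of all 32851. Its arm AGAACA, which overlaps it, was found 1 time before Ccl20 and in 16.1% of all promoters. The ROR motif AGGTCA was found 1 time each before Ccl3 and Ccl20 and in 14.02% of all. A motif of NF-kB, searched on the gene's own strand only, was found 1 time before Ccl1 and in 1641 promoters. Its matches on the other strand were not counted. For all other motifs both strands were searched, and a match describes letters only.

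**Figure D1:**
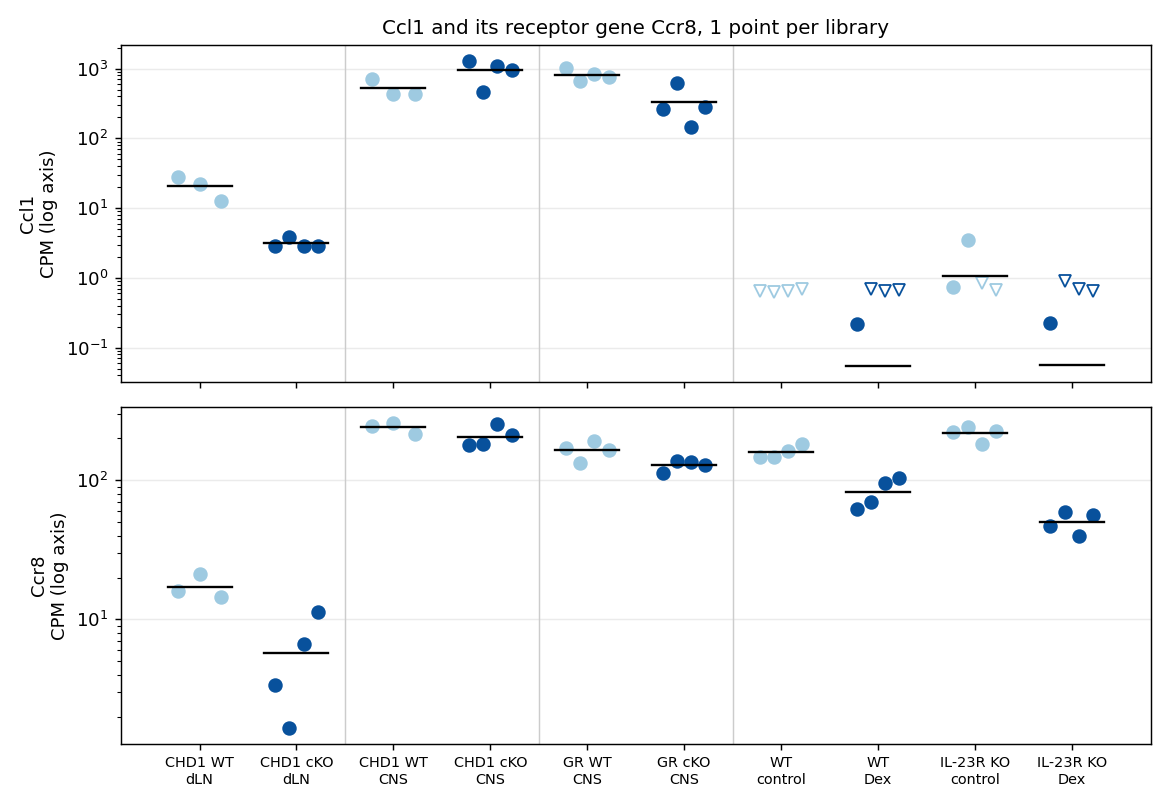
Library-scaled counts (CPM, log axis) of Ccl1 (top) and Ccr8 (bottom) in 10 groups, 1 point per library, with a black bar at the group mean and an open triangle at the limit of 3 counts where a library had none. Ccl1 lies between 143 and 1302 CPM in the CNS and at no more than 3.46 CPM in vitro, while Ccr8 lies between 39.6 and 240 CPM in vitro.

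Ccl1 was high in cells of the CNS and close to 0 in culture, whereas its receptor gene was high in both. Over transcript length, Ccl1 averaged 1016 ± 304 CPM per kb in CHD1 WT cells of the CNS (SD, n = 3), against 205 ± 20.1 CPM per kb for Ccr8. In the CHD1 WT dLN the averages were 40.4 ± 14.5 and 14.7 ± 3.04 CPM per kb (SD, n = 3). In WT control cultures Ccl1 was at 0 in all 4 libraries while Ccr8 averaged 136 ± 13.8 CPM per kb (SD, n = 4). The order of group means for Ccl1 was CHD1 cKO CNS, GR WT CNS, CHD1 WT CNS, GR cKO CNS, CHD1 WT dLN, CHD1 cKO dLN and then all cultures. Neighbours in that order overlapped among the CNS groups, while the dLN groups were apart from the CNS and from each other. The CHD1 cKO dLN values overlapped with the highest culture value, that of an IL-23R KO control. For Ccr8 the order of means was CHD1 WT CNS, IL-23R KO control, CHD1 cKO CNS, GR WT CNS, WT control, GR cKO CNS, WT Dex, IL-23R KO Dex, CHD1 WT dLN and CHD1 cKO dLN. Neighbours from CHD1 WT CNS down to WT control overlapped, and those from WT control down to CHD1 cKO dLN did not. The groups come from 4 separately deposited tables, so levels set across them are descriptions.

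CNS cells were compared with dLN cells within each CHD1 genotype. All 5 member genes that could be tested were higher in the CNS in CHD1 WT cells, where 16.7% of all tested genes were called at an adjusted p under 0.05. The same 5 were again called in CHD1 cKO cells, where 47.3% were. Only 3 of them, Ccl1, Ccr8 and Xcl1, passed the filter on low counts in the dLN libraries alone. Ccl3 and Ccl4 entered through the CNS libraries, so their direction was set by the filter and the 5 of 5 is not read as a result. Adjusted p values are from edgeR's quasi-likelihood test with Benjamini-Hochberg adjustment over all genes of a comparison, two-sided. Each tissue was counted in a table of its own, so tissue and table cannot be told apart. Nor can more of a transcript per T cell be told apart from RNA of more cells of another kind, in these or the other comparisons of bulk samples.

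Ccl1 stood at 702, 436 and 428 CPM in CHD1 WT CNS libraries 1 to 3 and at 27.6, 21.9 and 12.8 CPM in the CHD1 WT dLN libraries. The groups lay far apart, and Ccl1 was 19.7-fold higher in the CNS (log2 fold change 4.30 ± 0.36 SE, adjusted p = 1.53e-06). In CHD1 cKO cells Ccl1 was 1302, 458, 1107 and 941 CPM in the CNS and 2.89, 3.84, 2.90 and 2.91 CPM in the dLN, a fitted difference of 196-fold (log2 7.61 ± 0.38, adjusted p = 3.72e-09). Ccr8 was 248, 260 and 214 CPM in the CHD1 WT CNS and 15.9, 21.3 and 14.5 CPM in the dLN, 10.9-fold higher in the CNS (adjusted p = 3.12e-05). In CHD1 cKO cells the Ccr8 difference was 21.2-fold (adjusted p = 6.14e-07). Ligand and receptor were thus both far higher in the CNS in both genotypes.

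The other ligands were close to or at 0 in the dLN. Xcl1 was at 0 in all 3 CHD1 WT dLN libraries and at 16.02, 4.28 and 8.86 CPM in the CHD1 WT CNS, at least 39.1-fold higher with 3 counts over the dLN group as the limit (adjusted p = 0.0298). That call was lost without CHD1 WT CNS library 1 or 3 (adjusted p = 0.0851 and 0.0522), and without CHD1 WT dLN library 1, 2 or 3 (0.0849, 0.0741 and 0.0827). Ccl3 was at 0 in all 7 dLN libraries. CHD1 WT cells of the CNS held 36.6, 24.9 and 19.6 CPM of it, at least 108-fold above the dLN limit (adjusted p = 2.17e-05), and at least 376-fold above it in CHD1 cKO (adjusted p = 6.78e-07). Ccl4 had 0, 0 and 2 counts in the CHD1 WT dLN libraries against 334 to 510 counts in the CNS (adjusted p = 2.25e-06). In CHD1 cKO cells Xcl1 was 11.9-fold higher in the CNS (log2 3.57 ± 0.71, adjusted p = 0.00135). Its dLN level there came mostly from library 2, which held 51 counts against 9, 12 and 15 in libraries 1, 3 and 4.

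Other chemokine genes moved with tissue too. Of 32 further chemokine ligand genes, 17 were tested, and 13 were higher and 0 lower in the CHD1 WT CNS. Their median log2 fold change was 5.55, or 4.99 with genes at 0 in a group set to their bound, beside -0.01 for all genes tested. Of the 32, only 2 passed the filter on low counts in the dLN libraries alone, against 17 in the CNS libraries alone. Most of the 17 thus entered through the CNS, where they are high, so this split and median were largely set by the filter. The smallest p values were those of Cxcl16 (log2 5.55), Ccl12 (7.63) and Ccl6 (7.29), all known from macrophages and other myeloid cells, the macrophage marker sum being far higher in the CNS as well. Its part in the differences of Ccl3 and Ccl4, which macrophages also make, was not tested. Of 22 further receptor genes, 14 were tested, with 5 higher and 1 lower. Ccr1 (log2 2.81 ± 0.52), a receptor of CCL3, was higher in the CNS, whereas Ccr7, which guides cells into lymph nodes, was lower (-1.76). Of 30 genes of T cell activation, 29 were tested, and 23 were higher and 0 lower, among them Nr4a1 (log2 3.04), Egr1 (2.05) and Irf8 (2.94). In the dLN libraries alone 20 of the 30 passed the filter, so some of the 29 entered through the CNS. Which cells held these transcripts is not known, and the part of macrophage RNA was not tested for them either.

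**Figure D2:**
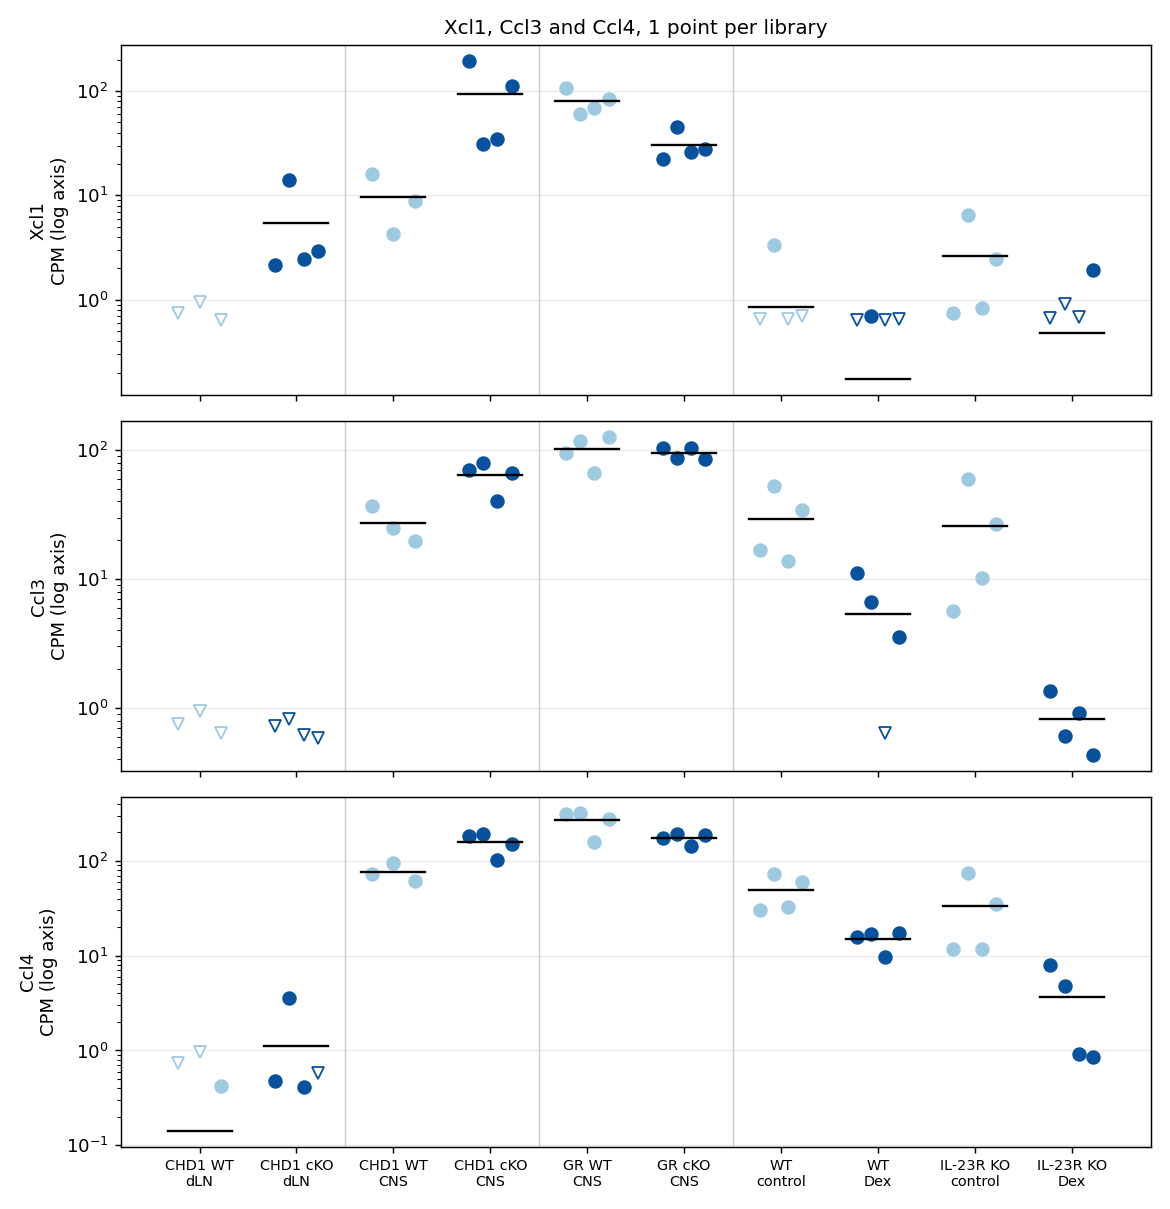
CPM (log axis) of Xcl1, Ccl3 and Ccl4 in 10 groups, 1 point per library, with a black bar at the group mean and an open triangle at the limit of 3 counts where a library had none. Every GR cKO library lies below every GR WT library for Xcl1, every CHD1 cKO CNS library lies above every CHD1 WT CNS library for Xcl1, Ccl3 and Ccl4, and Ccl3 is at 0 in all 7 dLN libraries. The share of all tested genes that separate in this way was not counted.

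Between CHD1 cKO and WT cells of the CNS, ligands were at higher and the receptor at lower levels in the cKO, but no member was called. In this comparison 0.00896% of all tested genes (1 gene) were called by edgeR and 178 by DESeq2, and 1326 genes had an unadjusted p under 0.05 with edgeR. The WT values of Ccl1 (702, 436 and 428 CPM) met cKO values of 1302, 458, 1107 and 941 CPM, with cKO library 2 inside the WT range. Its log2 fold change was 0.72 ± 0.32 SE (adjusted p = 0.423). For Ccr8 the WT libraries gave 248, 260 and 214 CPM and the cKO libraries 179, 181, 253 and 210 CPM, with overlap (log2 -0.38 ± 0.15, adjusted p = 0.379).

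Xcl1 showed the widest separation. It stood at 16.02, 4.28 and 8.86 CPM in CHD1 WT and at 193, 31.3, 34.9 and 113 CPM in CHD1 cKO libraries, so that every cKO library was above every WT library. The fitted difference was 8.48-fold (log2 3.08 ± 0.72, adjusted p = 0.236). Ccl3 gave 36.6, 24.9 and 19.6 CPM in CHD1 WT against 69.8, 79.1, 40.0 and 66.4 CPM in the cKO, and the groups did not overlap (log2 1.09 ± 0.25, adjusted p = 0.236). Ccl4, at 73.0, 94.9 and 61.6 CPM in WT, reached 184, 191, 101 and 150 CPM in the cKO, again without overlap (log2 0.88 ± 0.21, adjusted p = 0.236). How many of all tested genes separate between these groups was not counted, so the separation is not read as a trait of these ligands. With DESeq2 all 3 ligands were called, at adjusted p of 0.0193 for Xcl1, 0.0047 for Ccl3 and 0.00741 for Ccl4. Over leaving out each library in turn, edgeR's adjusted p ran from 0.132 to 0.565 for Xcl1.

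Marker sums of macrophages, dendritic cells and NK or CD8 T cells also averaged higher in the cKO. Of these markers 14, 7 and 3 were tested, and 0 were called. The macrophage and microglia markers summed to 3669 to 5665 CPM in CHD1 WT and 4173 to 9194 CPM in CHD1 cKO CNS libraries, and the 8 dendritic cell markers to 2177 to 3259 and 4188 to 8250 CPM. The NK and CD8 T cell markers summed to 67.2 to 94.7 CPM in WT and 108 to 225 CPM in cKO. Most of that difference was Gzma (means 47.6 and 113 CPM), while Cd8b1 was similar (28.0 and 28.6 CPM). With the macrophage sum as a covariate, an alternative added after seeing the data, the log2 fold changes were 3.21 for Xcl1, 1.24 for Ccl3 and 0.83 for Ccl4 (adjusted p = 0.681 for each). The B cell markers summed to 36.3 to 64.4 CPM in WT and 81.8 to 119 CPM in cKO libraries. The part of the dendritic, NK, CD8 and B cell RNA was not tested. Of the 17 further ligand genes tested, 0 were called in either direction, with a median log2 fold change of 0.44 beside -0.01 for all genes. Of 14 receptor genes and 29 activation genes tested, 0 were called as well.

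In the dLN, Ccl1 and Ccr8 stood at lower and Xcl1 at higher levels in the cKO, and only Ccl1 of the 3 was called. Ccl1 stood at 27.6, 21.9 and 12.8 CPM in CHD1 WT and at 2.89, 3.84, 2.90 and 2.91 CPM in CHD1 cKO libraries, from 60 to 111 and 12 to 15 counts. The groups did not overlap, and Ccl1 fell by 2.60 on the log2 scale (SE 0.25, 6.08-fold lower, adjusted p = 0.0123). It was the 1 member called of 3 tested, where 0.0714% of all tested genes (7 genes) were called. That number over all genes was 385 with DESeq2 and ran from 0 to 990 over the left-out libraries, with 990 without CHD1 cKO dLN library 4. The call of Ccl1 was lost without CHD1 WT dLN library 1 or 2 (adjusted p = 0.0611 and 0.112) and without CHD1 cKO dLN library 2 or 3 (0.0686 and 0.0884), with log2 fold changes from -2.79 to -2.36 over all left-out libraries. DESeq2 gave an adjusted p of 7.78e-10.

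Ccr8 was 15.9, 21.3 and 14.5 CPM in CHD1 WT and 3.37, 1.65, 6.62 and 11.2 CPM in CHD1 cKO dLN libraries. Every cKO library was under every WT library, but the difference was not called (log2 -1.35 ± 0.51, adjusted p = 0.190). It was called without cKO library 4, the highest of its group (adjusted p = 0.0163). Xcl1 went the other way, at 0 in the 3 WT libraries and at 2.17, 13.996, 2.48 and 2.91 CPM in the cKO libraries. The level over the cKO group was at least 19.3-fold that of the WT limit of 3 counts (adjusted p = 0.0827). DESeq2 called Xcl1 (adjusted p = 0.000149).

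The dLN library with the most Xcl1, CHD1 cKO library 2, was also the one with the most CD8 transcripts. Cd8a stood at 59.2, 148, 92.0 and 20.4 CPM in CHD1 cKO dLN libraries 1 to 4, and the NK and CD8 T cell markers summed to 115 to 598 CPM against 29.2 to 33.8 CPM in WT. Ncr1, an NK cell marker, was at 0 in all 4 cKO libraries. Trbv16, the V segment of the 2D2 receptor beta chain, made up 98.1, 91.8, 96.9 and 98.7% of all Trbv counts in cKO libraries 1 to 4 against 99.2 to 99.5% in WT. Library 2 thus held the most Xcl1, the most Cd8a and the smallest share of 2D2 receptor. The other cKO libraries did not keep that order. Library 4 held the least Cd8a but more Xcl1 (2.91 CPM) than libraries 1 and 3 (2.17 and 2.48 CPM). The part of these cells in the values of Xcl1, Ccl1 and Ccr8 was not tested. Ccl4 had 2, 13, 2 and 0 counts in the cKO libraries, also highest in library 2, and was not tested. Of 2 further ligand genes, 10 receptor genes and 20 activation genes tested, 0 were called.

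The effect of CHD1 on Ccl1 was compared between tissues in one fit. The interaction of genotype and tissue was 3.32 ± 0.49 on the log2 scale for Ccl1 (adjusted p = 0.0304), the cKO effect being more positive in the CNS. In this fit 0.112% of all tested genes (13 genes) were called, against 586 with DESeq2. Ccl1 was the 1 member called of 5 tested, and no size is given for Xcl1 and Ccl3, which had a group at 0. The call was lost when any of 8 libraries was left out, namely CHD1 WT CNS library 1, 2 or 3, CHD1 WT dLN library 1 or 2, or CHD1 cKO dLN library 1, 2 or 3. Adjusted p was then 0.0614 to 0.113. Over all 14 left-out libraries the interaction lay between 3.07 and 3.55. For Ccr8 the interaction was 0.97 ± 0.53 (adjusted p = 0.343), and without CHD1 cKO dLN library 4 it was 1.65 (adjusted p = 0.0386), with 648 genes called in place of 13.

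**Figure D3:**
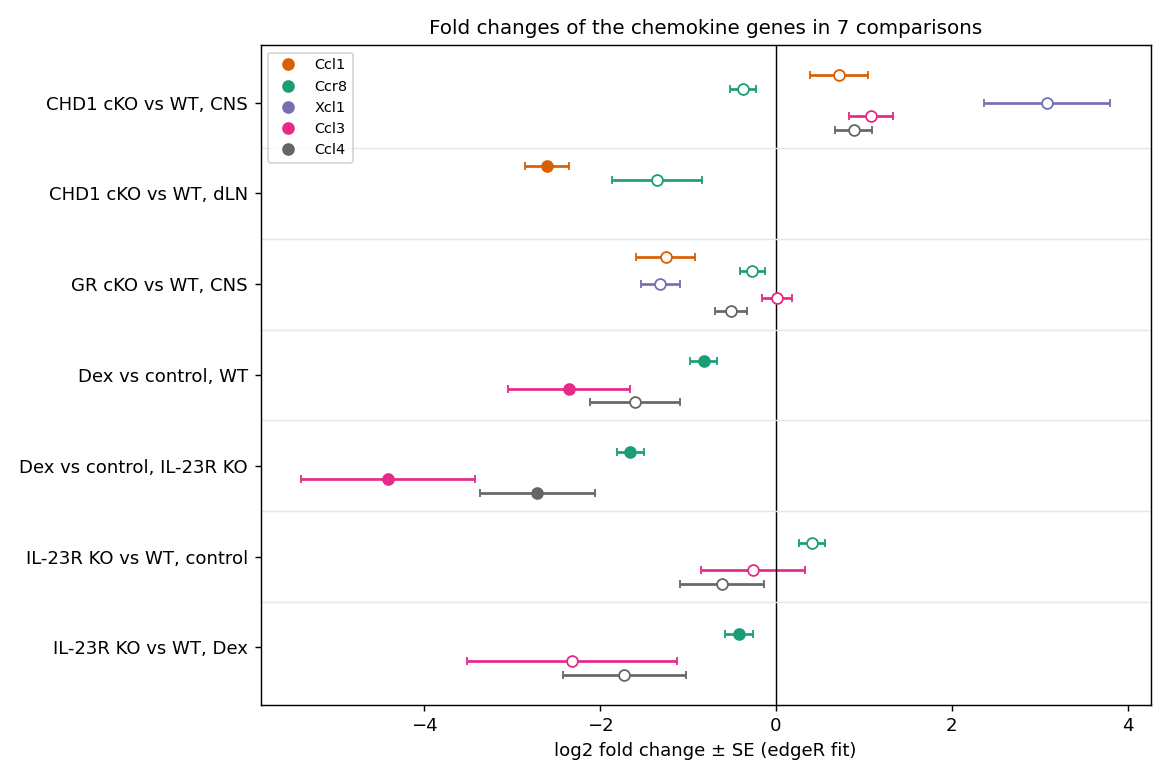
Fitted log2 fold change with its SE for each tested member in 7 comparisons, with filled points for genes at an adjusted p under 0.05. Xcl1 in the dLN is left out because the CHD1 WT group is at 0. Ccl1 and Xcl1 are to the right of 0 in the CHD1 comparison of the CNS and to the left in the GR comparison, and all tested genes are to the left of 0 with Dex in both genotypes.

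In CNS cells labelled GR cKO, Ccl1 and Xcl1 stood at lower levels while Ccl3 had similar means. No member was called, and 0% of all tested genes were called by edgeR, with 1226 genes at an unadjusted p under 0.05, and 122 by DESeq2. Ccl1 was 1017, 661, 827 and 748 CPM in GR WT libraries 1 to 4 and 267, 616, 143 and 286 CPM in the GR cKO cells (libraries 5, 6, 7 and 9). No GR cKO library reached the lowest GR WT library, although library 6 came close (log2 -1.25 ± 0.34, adjusted p = 0.270). For Ccr8 the GR WT libraries gave 171, 132, 193 and 164 CPM and the cKO libraries 113, 138, 135 and 128 CPM, with overlap (log2 -0.27 ± 0.14, adjusted p = 0.531).

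Xcl1 was 107, 60.4, 68.2 and 83.4 CPM in GR WT and 22.2, 45.2, 25.8 and 28.0 CPM in GR cKO libraries. The groups did not overlap, and the fitted level was 2.49-fold lower in the cKO (log2 -1.31 ± 0.22, adjusted p = 0.153). DESeq2 called it, with an adjusted p of 2.42e-05. GR WT library 1 was the highest of its group for both Ccl1 and Xcl1, and GR cKO library 6 the highest of its group for both. The same libraries were highest of their groups for Cd3e, at 546 and 332 CPM, the latter barely above 331 CPM in GR cKO library 9. Ccl4, at 311, 322, 156 and 279 CPM in GR WT, was 172, 194, 144 and 188 CPM in the cKO (log2 -0.50 ± 0.18, adjusted p = 0.348), with WT library 3 inside the cKO range. Ccl3 averaged 101 ± 26.7 CPM in WT and 94.6 ± 10.2 CPM in cKO (SD, n = 4 each; log2 0.01 ± 0.17, adjusted p = 0.984).

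Macrophage and microglia markers summed to 2708 to 10549 CPM in GR WT and 5497 to 12261 CPM in GR cKO libraries, and the 8 T cell markers to 2620 to 3570 and 1807 to 2550 CPM. T cell markers were therefore lower in every cKO library, alongside Ccl1 and Xcl1. NK and CD8 T cell markers summed to 180 to 324 and 130 to 302 CPM. With the macrophage sum as a covariate, the log2 fold changes were -1.03 for Ccl1 (adjusted p = 0.529) and -1.01 for Xcl1 (adjusted p = 0.244). The part of T cell content or of NK and CD8 RNA was not tested. Of 18 further ligand genes tested, 0 were called, with a median log2 fold change of 0.53 beside -0.0025 for all genes. Of 15 receptor genes, 0 were called. Xcr1, the receptor of XCL1, was 0.950 to 1.75 CPM in WT and 1.27 to 1.72 CPM in cKO libraries.

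In vitro, the question was what Dex does to these genes and whether IL-23R changes it. Ccl1 was almost absent, with 0 counts in the WT controls, 3, 15, 0 and 0 in the IL-23R KO controls, and 1, 0, 0 and 0 with Dex in each genotype. It was not tested, like Xcl1 and Ccl20. A count of 0 allows up to 0.634 to 0.903 CPM in these libraries. In WT cells Ccr8, Ccl3 and Ccl4 were tested, and 2 of the 3 fell with Dex, where 8.08% of all tested genes were called.

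Ccr8 was 147, 148, 162 and 182 CPM in the WT controls and 61.9, 69.7, 96.2 and 104 CPM with Dex, without overlap. It fell by 0.82 on the log2 scale (SE 0.15, 1.77-fold lower, adjusted p = 0.00279) and was called under each left-out library. Ccl3 was 16.9, 52.6, 13.8 and 34.0 CPM in the controls and 11.2, 6.69, 0 and 3.52 CPM with Dex, again without overlap, and fell by 2.35 (SE 0.69, adjusted p = 0.0455). This call was lost with DESeq2 (adjusted p = 0.0871), without control library 2 or 4 (0.164 and 0.0911) and without Dex library 2, 3 or 4 (0.0770, 0.109 and 0.118). Ccl4 was 30.7, 73.3, 32.8 and 59.1 CPM in the controls and 15.8, 17.1, 9.64 and 17.4 CPM with Dex, without overlap. Its log2 fold change was -1.60 ± 0.51 (adjusted p = 0.0635), and it was called when only the 8 WT libraries were fitted (0.00814).

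In IL-23R KO cells all 3 tested members fell with Dex, where 54.7% of all tested genes were called. Ccr8 was 224, 240, 182 and 226 CPM in the KO controls and 47.1, 59.0, 39.6 and 55.9 CPM with Dex. It was 3.14-fold lower (log2 -1.65 ± 0.16, adjusted p = 2.02e-07). Ccl3 was 5.70, 59.7, 10.1 and 26.9 CPM in the KO controls and 1.34, 0.602, 0.915 and 0.432 CPM with Dex, from 2 to 6 counts per library, and fell by 4.41 (SE 0.99, adjusted p = 0.00116). Ccl4 was 11.9, 74.7, 11.8 and 35.2 CPM in the KO controls and 8.07, 4.82, 0.915 and 0.864 CPM with Dex, and fell by 2.71 (SE 0.65, adjusted p = 0.00205). None of the 3 genes overlapped between KO control and KO Dex libraries. The share of all tested genes without overlap was not counted, so this is not read as a trait of the 3 genes. In the KO Dex libraries 31.5 to 38.5% of counts fell on repeats or ribosomal RNA, against 14.3 to 22.9% in the KO controls, and without those features all 3 genes were still called. The 8 T cell markers summed to 1159 to 1460 CPM in KO Dex and 2174 to 2374 CPM in the KO controls. The dendritic cell markers summed to 630 to 827 and 247 to 376 CPM, nearly all of it H2-Ab1 (means 730 and 289 CPM). Of the same list, H2-Aa was lower in KO Dex (means 0.964 and 5.35 CPM) and Cd74 was similar (10.1 and 9.98 CPM). Mitochondrial counts were 0.359 to 0.447% in KO Dex and 1.56 to 1.91% in the KO controls. The part of these differences in the falls was not tested.

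The response of Ccr8 to Dex differed between genotypes. The interaction was -0.83 ± 0.22 on the log2 scale (adjusted p = 0.00797), a larger fall in IL-23R KO cells, and it was called with each of the 16 libraries left out. It was 1 of 3 tested members called, where 32.2% of all tested genes were called. For Ccl3 the interaction was -2.06 ± 1.36 (adjusted p = 0.268) and for Ccl4 -1.11 ± 0.85 (adjusted p = 0.346), each with an SE too wide for the threshold.

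Genotypes were also compared within each treatment, with libraries shared with the Dex comparisons. Among controls 0 of 3 tested members were called, where 0.684% of all tested genes were called. Ccr8 was 1.33-fold higher in the KO controls (adjusted p = 0.346), with the lowest KO and the highest WT library both at 182 CPM. Ccl3 and Ccl4 overlapped between the genotypes (adjusted p = 0.951 and 0.790). With Dex, 1 of 3 was called, where 45.9% of all tested genes were called. Ccr8 fell by 0.42 (SE 0.16, adjusted p = 0.0406) and did not overlap between genotypes. It no longer passed once WT Dex library 3 or 4 (adjusted p = 0.136 and 0.150) or KO Dex library 5 or 7 (0.0691 and 0.137) was left out, or when only the 8 libraries compared were fitted (0.0761). Ccl3 (log2 -2.32 ± 1.19, adjusted p = 0.124) and Ccl4 (-1.72 ± 0.70, adjusted p = 0.0526) were not called. Ccl4 was called without KO Dex library 5 (adjusted p = 0.0177).

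Genes around these chemokines changed with Dex as follows. Of 29 tested genes of T cell activation, 16 fell and 1 rose in WT cells, and 16 fell and 9 rose in IL-23R KO cells, where 8.08% and 54.7% of all tested genes were called in either direction. The median log2 fold change of that list was -0.59 in WT and -0.46 in KO cells, beside 0.01 for all genes tested in each. In WT cells Il5 fell by 4.86, Il13 by 3.33, Il4 by 1.92 and Il3 by 2.43, the first 3 being the cytokines of Th2 cells. The 5 Th2 markers summed to 263 to 347 CPM in WT controls and 61.4 to 79.7 CPM with Dex, and to 346 to 425 and 25.5 to 28.5 CPM in KO cells, alongside Ccr8. Of 6 further ligand genes tested, Ccl22, a ligand of CCR4, fell in WT cells (by 3.65) and was the 1 called. In KO cells Ccl22 fell by 2.94, while Cxcl2, Ccl5 and Ccl27a rose by 5.48, 1.37 and 0.70. Of 12 tested receptor genes, 2 rose and 0 fell in WT cells, and 5 rose and 2 fell in KO cells, a share in KO cells near the 54.7% called among all genes. Ccr7 (log2 2.01), Ccrl2 (2.07) and Cxcr1 (2.71) rose there and Cxcr3 fell by 2.10.

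Ccl20 was close to absent in every library, with at most 2 counts in any of the 38. It had 0 counts in all 15 CNS libraries, which allows up to 0.328 to 0.611 CPM, and it was tested nowhere. Its receptor gene Ccr6 stood at 0.573 to 11.2 CPM in CHD1 CNS libraries, 0.427 to 3.84 CPM in the dLN and 1.69 to 30.2 CPM in vitro. Ccr6 had an interaction of genotype and Dex of -2.45 ± 0.84 (adjusted p = 0.0333).

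**Figure D4:**
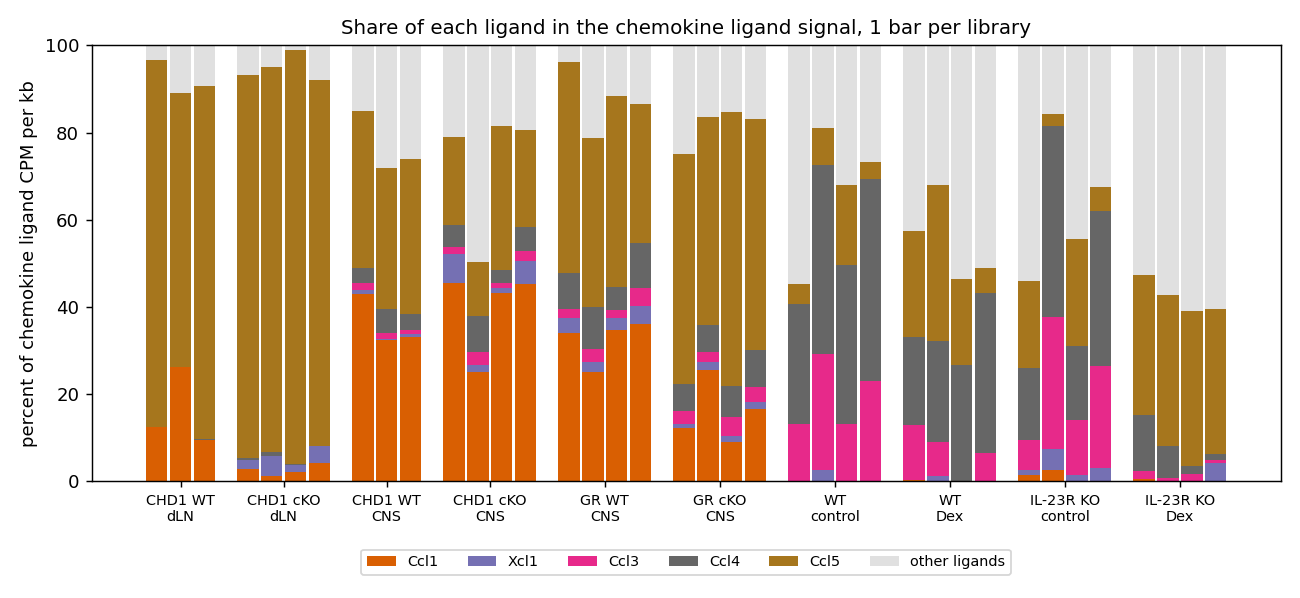
Share of each member ligand, of Ccl5 and of all other ligands in the summed CPM per kb of 36 chemokine ligand genes, 1 bar per library. Ccl1 takes 25.1 to 45.5% in the CHD1 CNS and 8.90 to 36.2% in the GR CNS libraries, Ccl5 takes 62.9 to 94.8% in the dLN, and Ccl4 leads the members in WT control cultures.

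Scaled to transcript length, the ligands could be set against each other within a library. Over 36 ligand genes, Ccl1 took 32.4 to 42.9% of the summed CPM per kb in CHD1 WT CNS libraries and 25.1 to 45.5% in CHD1 cKO. It took 25.1 to 36.2% in GR WT and 8.90 to 25.5% in GR cKO libraries. In the dLN its share was 9.44 to 26.3% in CHD1 WT and 1.27 to 4.12% in CHD1 cKO, where Ccl5, a chemokine of T cells and other leukocytes, took 83.9 to 94.8%. In WT control cultures Ccl4 took 27.5 to 46.4% and Ccl3 13.0 to 26.7%, and in IL-23R KO Dex cultures they took 1.49 to 12.9% and 0.641 to 1.86%. Xcl1 reached at most 6.62% in any library. The sum itself ran from 2516 to 5566 CPM per kb in the CHD1 CNS and from 55.0 to 258 CPM per kb in vitro, so equal shares stand for very unequal levels. In the CNS the sum includes ligands of myeloid cells.

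Genes with the most similar pattern were sought over the 16 in vitro libraries among 7984 genes. For Ccr8 they were Lcp2, Plk3, Gata3, Ccdc184 and Sept11, with Pearson r of log2 CPM from 0.952 to 0.958. Gata3 encodes the main regulator of Th2 cells and Lcp2 an adaptor of T cell receptor signalling. Within groups the r of these 5 was 0.496 to 0.779. In the other tables Plk3 had r of 0.843, 0.950 and 0.654 with Ccr8 (CHD1 CNS, CHD1 dLN, GR CNS; n = 7, 7 and 8) and Gata3 0.695, 0.864 and 0.372, while Sept11 had -0.462, 0.361 and 0.139. For Ccl4 they were Rfc5, Gnl3, Ptpn5, Tuba4a and Eif2b3 (r from 0.922 to 0.958), and for Ccl3 Tma7, Tmem126a, Ube2l6, Cox7b and Eif4e (0.895 to 0.921). The 16 libraries share treatment and genotype groups, so these correlations are descriptions without a test.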

How the data were processed

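The 6 genes, the lists and the alternatives were chosen with earlier results of these data known. Libraries were made from 2000 sorted cells with a modified SMART-Seq2 protocol, per the labels' protocols. The deposited tables give expected counts for each gene symbol. According to the submitters' processing notes the authors used RSEM 1.3.3 and mm10. All values were already whole. No aligner or annotation release is named there.

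Counts were tested with edgeR 4.0.16 in R 4.3.3: genes kept by filterByExpr (default minimum count of 10 and total of 15), TMM scaling, a quasi-likelihood F test and Benjamini-Hochberg adjustment over all tested genes, with calls at 0.05. The genotype comparisons in vivo were fitted within their table, the in vitro contrasts in 1 fit of 16 libraries, and the tissue contrasts in 1 fit of the 14 CHD1 libraries. SE is the log2 fold change divided by the root of F. Overlap between groups is given for named genes only and was not counted over all tested genes in any comparison. CPM used all deposited counts of a library, so repeat and ribosomal RNA (CHD1 CNS 13.3 to 33.2% of counts, dLN 42.5 to 60.1%, GR 31.6 to 42.2%, in vitro 14.3 to 38.5%) lowers it. CPM per kb used the longest principal transcript of GENCODE M21. For a count of 0 the upper limit was set at 3 counts and covers counting error only, since no molecular identifiers are named. The labels do not say that libraries were separate animals or cultures, so p values measure the spread between libraries.

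Named genes were the 6 members, Chd1, Nr3c1 and Il23r as checks, up to 4 called genes per list with the smallest p, the ligands' receptors Xcr1, Ccr1 and Ccr6 (results for another receptor are not reported here), and the 5 most similar genes per member tested in vitro (mean of at least 5 CPM, prior count 2). Ccl5 in the shares, Ccr7 between tissues, Trbv16, Cd8a and single marker genes were named outside that rule after values were seen. Alternatives were DESeq2 1.42.0, edgeR with DESeq2's size factors, all genes kept whatever their counts, removal of 19 repeat and ribosomal RNA features, a replicate block, a fit of the 8 libraries compared, a joint fit of both tissues and leaving out each library. A macrophage marker covariate was added after seeing the data. The code was tested on simulated data.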

Additional observations from a re-analysis of the deposited data

Results flagged for a closer look

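Each member in each group of 4 libraries formed a set, kept where some library had at least 10 counts. Of 33 such sets, 4 had a library far from the others by Dixon's criterion. Chance gives about 1 in 20 for independent, normally distributed values. Sets that share libraries or hold zeros are not of that kind. Of these, 3 were CHD1 cKO dLN library 2, which was highest for Xcl1 (13.996 CPM against 2.17 to 2.91), Ccl4 (3.57 CPM against 0 to 0.482) and Ccl1 (3.84 CPM against 2.89 to 2.91). The Ccl1 value rests on 14 counts, within the 12 to 15 counts of the group. The other was WT control library 2 in vitro, with Xcl1 at 3.38 CPM and 0 in the other 3 libraries. The response of Ccr8 to Dex differed between WT and IL-23R KO cells (interaction -0.83 on the log2 scale). The effect of the CHD1 genotype on Ccl1 differed between CNS and dLN (interaction 3.32).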

How the results depend on the processing

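Of 41 fitted fold changes of members, 223 values under alternatives other than a left-out library comprised 202 on the same side of the threshold in the same direction, 17 newly past it, 3 no longer past it and 1 of the other sign. That 1 was Ccl3 between GR cKO and WT, at -0.030 with the macrophage covariate. Leaving out libraries gave 349 values, of which 313 stayed, 26 lost and 3 gained a call and 7 changed sign. The last were Ccl3 between GR cKO and WT (-0.12 to 0.14), Ccl3 between the IL-23R genotypes without Dex (-1.06 to 0.19) and Ccl4 in the interaction of CHD1 genotype and tissue (-4.78 to 0.056), none of them called. The number of members called moved with DESeq2 from 0 to 3 (CHD1, CNS), from 1 to 2 (CHD1, dLN), from 0 to 1 (GR), from 2 to 1 (Dex in WT) and from 1 to 3 (IL-23R KO against WT with Dex). Over all genes, in the same order, DESeq2 called 178, 385, 122, 913 and 4558, where edgeR called 1, 7, 0, 874 and 4967. Without a filter on low counts the number of members moved to 2 in the CNS and dLN comparisons of CHD1 and to 2 between the IL-23R genotypes with Dex. Over all genes 72, 511 and 4780 were then called. Leaving out libraries gave 0 to 2 members in the dLN comparison, 1 to 2 for Dex in WT cells, 0 to 1 between the genotypes with Dex and 0 to 2 in the interaction of CHD1 genotype and tissue. The cause of these moves was not tested.

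A replicate block in edgeR raised the members called in the dLN comparison of CHD1 from 1 to 3, adding Ccr8 (adjusted p = 0.0300) and Xcl1 (0.0147). Over all 9803 genes tested there, the number called rose from 7 to 613. The block also called Ccl4 with Dex in WT cells (0.0452) and lost Xcl1 between tissues in CHD1 WT (0.0636). Same-numbered libraries of different groups had correlations of their deviations from -0.0803 to 0.145 and share only a number, as far as the labels say. Depth limits the dLN and in vitro values most, where Ccl1, Xcl1, Ccl4 or Ccl20 often rest on few counts.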
